A study of Mus musculus with 3 samples.

Results

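Tra2β contacts were counted along 9 genes whose proteins build and watch over the meiotic chromosome axis: Sycp1, Sycp2, Sycp3, Syce1, Syce2, Syce3, Tex12, Hormad1 and Hormad2. They were chosen by name out of 21770 protein-coding genes with a canonical transcript in the GENCODE vM39 annotation. No count set the choice, but earlier results of these data were known when it was made. The contacts came from iCLIP, which joins protein and RNA by ultraviolet light in the tissue and reads the joined nucleotide from the end of each cDNA. There was 1 group of 3 biological replicates, germ cells released by mincing from testes of adult wild type mice, labelled as mixed in cell type, and RNA was recovered with a polyclonal antibody against Tra2b. No input, control antibody or knockout library was analysed here, and RNA levels were not measured in these files. A crosslink below is 1 unique cDNA at 1 nucleotide on the strand of the gene. In such a bulk sample, fewer cells of a type, less RNA per cell and less binding per RNA cannot be told apart.

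In meiotic prophase, homologous chromosomes are joined along their length by the synaptonemal complex, a ladder of proteins. Sycp2 and Sycp3 form the lateral elements along the chromosome axes, Sycp1 forms the transverse filaments that bridge them, and Syce1, Syce2, Syce3 and Tex12 form the central element in the middle. Hormad1 and Hormad2 carry a HORMA domain, sit on axes that have not yet paired, and take part in the surveillance of synapsis. Tra2β is a splicing regulator related to the SR proteins that binds GAA-rich RNA and is known for activating exons that it binds.

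The libraries held 348033, 619571 and 488719 crosslinks, of which 296946, 459310 and 428612 lay on the sense strand of genes. The libraries differed in what they held: exons of canonical transcripts took 43.1%, 26.9% and 55.7% of the crosslinks in protein-coding genes in replicates 1, 2 and 3. Of the marker genes listed for the tissue, all 10 of germ cells, 4 of 6 of Sertoli cells and 4 of 5 of Leydig cells had exonic crosslinks in all 3 libraries. Amh, a marker of immature Sertoli cells, had none, and 4 of 5 genes that do not belong to testis had no exonic crosslink. Intervals and limits below cover counting error only.

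All 9 genes had crosslinks in every library, 1695 in all, but their number differed widely between genes. Sycp1 and Sycp2 together held 73.2% of the 970 exonic crosslinks. Over the 9 genes, exons held 223, 204 and 543 crosslinks and introns 172, 268 and 285 in replicates 1, 2 and 3. Exons thus took 56.5% of the crosslinks of replicate 1, with a 95% exact (Clopper-Pearson) interval of 51.4 to 61.4. Replicate 2 had 43.2% (interval 38.7 to 47.8), and for replicate 3 the value was 65.6% (interval 62.2 to 68.8). In each library the interval lay above the share over all protein-coding genes, and the share moved with it, lowest in replicate 2 and highest in replicate 3. By gene, Sycp1, Sycp2, Sycp3 and Syce1 were above the share over all genes in each library. Hormad2 and Syce3 were below it in each, and Syce2, Tex12 and Hormad1 differed by library. These shares were not adjusted for intron length.

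Lateral element genes and the transverse filament gene had the densest exons, together with Syce1 of the central element. Densities are given per kb and scaled to counts per 1000000 crosslinks on the sense strand of genes (CPM per kb). Sycp2 had 108, 95 and 252 exonic crosslinks, which gave 63.5, 36.1 and 102.7 CPM per kb (mean 67.4 ± 33.4, SD, n = 3), above 99.2% of all protein-coding genes. Sycp1 had 57, 51 and 147, or 53.6, 31.0 and 95.7 CPM per kb (60.1 ± 32.9), but a mean of 35.4 when exons of all its transcripts were counted, below Syce1 (58.9) and Sycp3 (36.9) counted the same way. Syce1, a gene with a far shorter transcript, had 30, 19 and 74, or 57.0, 23.3 and 97.4 CPM per kb (59.2 ± 37.1). These means lay within the spread of each other, and each of these genes was lowest in replicate 2, the library with the smallest exonic share over all genes, and highest in replicate 3. Sycp3, whose product is the most widely used marker of the lateral element, followed with 12, 8 and 40 exonic crosslinks and 39.9 ± 30.8 CPM per kb, lowest and highest in the same libraries. The part of the library composition in these spreads was not tested.

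The other 5 genes were sparser in exons. Hormad1 had 5, 19 and 15 exonic crosslinks (18.2 ± 7.44 CPM per kb, SD, n = 3) and was lowest in replicate 1. Syce2 had 6, 6 and 7 (9.81 ± 2.12 CPM per kb). Hormad2 had 3, 4 and 5 (4.82 ± 0.702 CPM per kb), although its gene is among the longest of the 9. Syce2 and Hormad2 were also lowest in replicate 2, at 7.75 and 4.14 CPM per kb. Syce3, a small protein needed to start central element assembly, had 1, 0 and 1 exonic crosslinks. Its transcript is 479 nt, so the count of 0 in replicate 2 allows a density of up to 13.6 CPM per kb, above the mean of Syce2. Tex12, which pairs with Syce2, had 1, 2 and 2 (1.98 ± 0.325 CPM per kb), all 5 in its last exon, still above 70.0% of all protein-coding genes, whose median was 0.508 CPM per kb. In the whole order of exon densities, Syce2 and Hormad2 were the only neighbours whose ranges over the 3 libraries did not overlap.

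**Figure D1:**
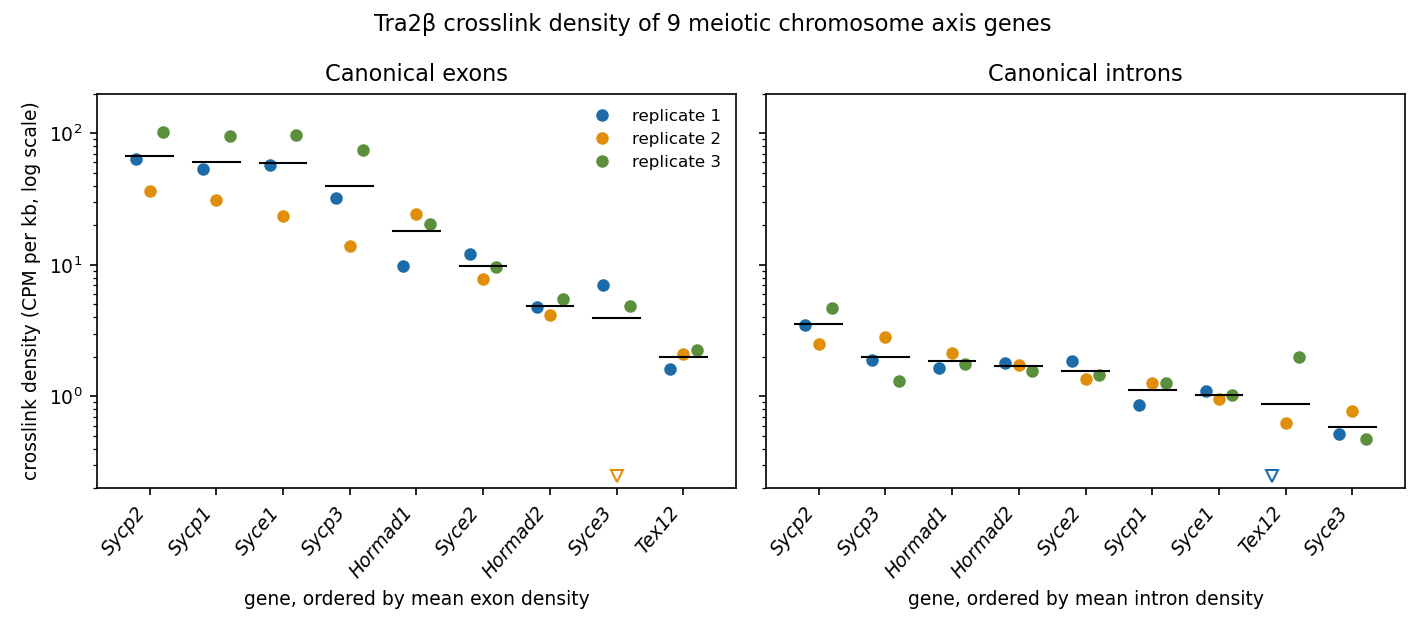
Crosslink density in canonical exons (left) and introns (right) of the 9 genes, in CPM per kb on a log scale, with 1 point per library, the mean as a bar and open triangles for counts of 0. Exon means run from 67.4 (Sycp2) to 1.98 (Tex12), intron means only from 3.57 (Sycp2) to 0.588 (Syce3).

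Intron densities were far more alike. Sycp2 was again first, with 59, 65 and 114 intronic crosslinks and 3.57 ± 1.099 CPM per kb of intron (SD, n = 3). Sycp3 (2.01 ± 0.752), Hormad1 (1.85 ± 0.254), Hormad2 (1.69 ± 0.130) and Syce2 (1.56 ± 0.270) came next, and Sycp1 (1.13 ± 0.235) and Syce1 (1.02 ± 0.0762) were lower. Tex12 had 0, 1 and 3 intronic crosslinks, and the 0 in replicate 1 allows up to 2.89 CPM per kb. Syce3 was last with 3, 7 and 4 crosslinks (0.588 ± 0.164). Only Syce2 and Sycp1 were neighbours in this order with ranges that did not overlap. Hormad2, sparse in exons, stood in the upper part of this order, with 50, 74 and 62 crosslinks in 93357 nt of intron.

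Exons had a higher mean density than introns in each of these genes, although Syce3 had no exonic crosslink in replicate 2. Each gene with at least 20 crosslinks was given an exact binomial test, two-sided, in which length set the share of crosslinks due to exons, with Benjamini-Hochberg adjustment over all genes within a library. A call needed 3 libraries with an adjusted p below 0.05 and 1 direction. Of the 7 genes tested, 6 were called higher in exons, against 32.3% of all genes tested, and none lower, against 0.0145%. Such a call is easier to reach with more crosslinks, and these shares were not matched for crosslinks per gene. The log2 ratio of exonic over intronic crosslinks per nt, with 0.5 crosslinks added to each side, was 5.96, 4.63 and 6.23 for Sycp1 (mean 5.61 ± 0.86, SD), 5.49, 4.49 and 6.42 for Syce1 (5.47 ± 0.97) and 4.17, 3.85 and 4.45 for Sycp2 (4.16 ± 0.30). The median over the 7 genes was 4.03, beside 2.50 over all genes tested. Sycp1 and Syce1 lay above 99.1% and 98.7% of all genes tested on this measure. Hormad1 (3.24 ± 0.50) and Syce2 (2.67 ± 0.11) were also called, with highest adjusted p of 0.0158 and 0.0149 in the exact binomial test. By log2 ratio they lay above only 71.3% and 55.6% of all genes tested. Syce2 lost its call when exons of all transcripts were counted (log2 ratio 2.00, highest adjusted p 0.0930).

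Hormad2 was the gene tested that was not called. Its log2 ratios were 1.62, 1.42 and 1.96, all above 0, with adjusted p of 0.328, 0.300 and 0.0490 in the exact binomial test. With the 3 libraries summed and the same direction required in each, Hormad2 passed too (adjusted p 0.00466) and the count was 7 of 7, against 71.2% of all genes. Sycp3 was the gene with the widest spread among those called, with 2.34 in replicate 2 and 5.73 in replicate 3. Syce3 and Tex12, with 16 and 9 crosslinks in canonical exons and introns, were not tested.

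**Figure D2:**
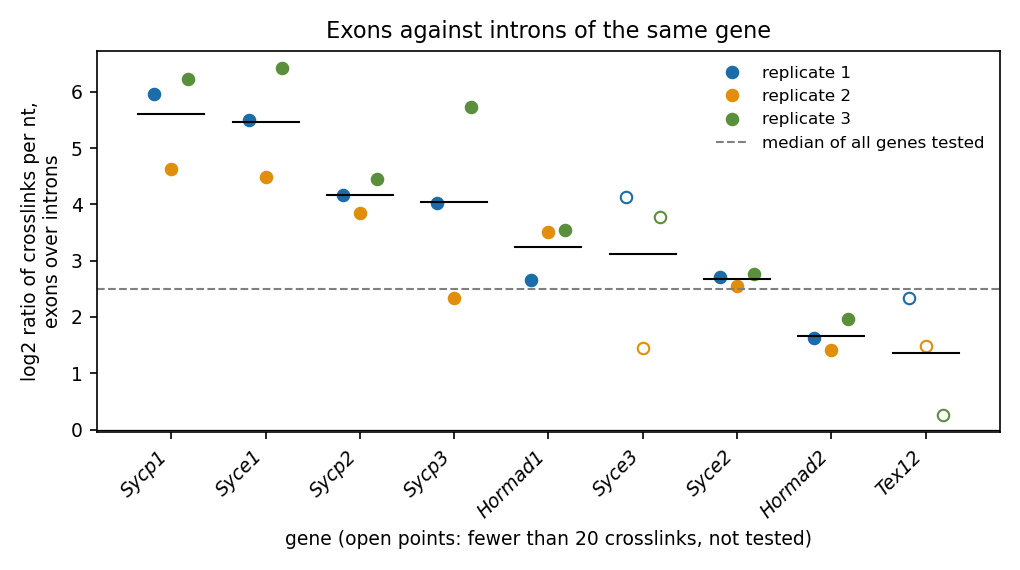
Exonic over intronic crosslinks per nt of the same gene on a log2 scale, by library, with the mean as a bar. Open points are Syce3 and Tex12, not tested. Every point of the 7 genes tested lies above 0, and the dashed line is the median of all genes tested (2.50).

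Within transcripts, crosslinks were spread over most exons rather than gathered in a few. Of 137 exons, 120 had a crosslink, and the 17 without were 21 to 254 nt long. Of the 113 exons in genes with at least 20 exonic crosslinks, tested against the other exons of their gene in the same way, none was called above in each library, against 0.164% of all exons tested. Without adjustment 1 exon, exon 6 of Syce1, passed in all 3 libraries, as did 0.622% of all exons. With the libraries summed and the same direction in each, a rule that holds counting error but not the spread between libraries, 8 of the 113 exons were above, against 3.68% of all exons. These shares were not matched for crosslinks per gene. Among tested exons with at least 5 crosslinks and 1 in each library, folds were no higher in these genes. Their median log2 fold was 0.781 (50 exons), beside 0.864 over all genes (10147 exons). All 8 exons above on the sum were internal and wholly coding, between 48 and 156 nt long. Those that are not the exon of highest fold in their gene were chosen for description after their values were seen.

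Syce1 had the most of these exons, with exons 5, 6 and 12. Exon 6 held 4, 7 and 7 of the 30, 19 and 74 exonic crosslinks in 55 nt, a mean log2 fold of 2.81 ± 1.27 (SD, n = 3) over the other exons, with an adjusted p of 0.603, 0.000286 and 0.247 by library in the exact binomial test and 4.99e-06 with the libraries summed. It was above the rest of the transcript in every library and furthest in replicate 2. Exon 5 (2, 1 and 8 crosslinks in 48 nt) and exon 12 (4, 2 and 10 in 82 nt) took more of their crosslinks from replicate 3, and neither passed with that library left out (adjusted p 1 and 0.457).

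In Sycp1, exon 22 held 6, 5 and 6 crosslinks in 63 nt, with a mean log2 fold of 2.30 ± 0.82 and an adjusted p of 0.000225 in the exact binomial test on the sum. The counts were alike in all 3 libraries, and the call held with any library left out, as it did for Syce1 exon 6 alone among the other 7. Exon 11 of Sycp1 held 3, 6 and 8 crosslinks in 74 nt (log2 fold 1.97 ± 0.69, adjusted p 0.00137 on the sum) and failed without replicate 2 (adjusted p 0.106). Exon 13 of Sycp1 stood at the other end. It is 95 nt long, holds 7.37 GAA per 100 nt, and had 0 of the 255 exonic crosslinks, which allows a share of up to 1.18% beside 2.65% of the length. Its call below on the sum (adjusted p 0.0286, exact binomial test) was lost when any library was left out.

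Sycp2 had exons 8 and 37 above on the sum. Exon 37 held 6, 7 and 17 crosslinks in 156 nt, more than any other exon of the 9 genes with such a call, at a log2 fold of 1.39 ± 0.21 (adjusted p 0.000602 in the exact binomial test, 0.133 without replicate 3). Exon 8 held 3, 5 and 10 in 86 nt (log2 fold 1.54 ± 0.44), and failed without replicate 2 or 3. Exon 14 of Sycp2 had the highest mean fold in its gene, but its 4, 9 and 2 crosslinks lay above the other exons in 2 of 3 libraries only, and the log2 fold of 1.75 ± 1.74 was carried by replicate 2. The same library carried exon 14 of Hormad1, with 2, 9 and 1 crosslinks (log2 fold 3.15 ± 1.72), an adjusted p of 1.64e-05 in replicate 2 and of 0.658 on the sum without it in the exact binomial test. In Sycp3 the highest fold was that of exon 3, with 2, 3 and 3 crosslinks and no call.

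**Figure D3:**
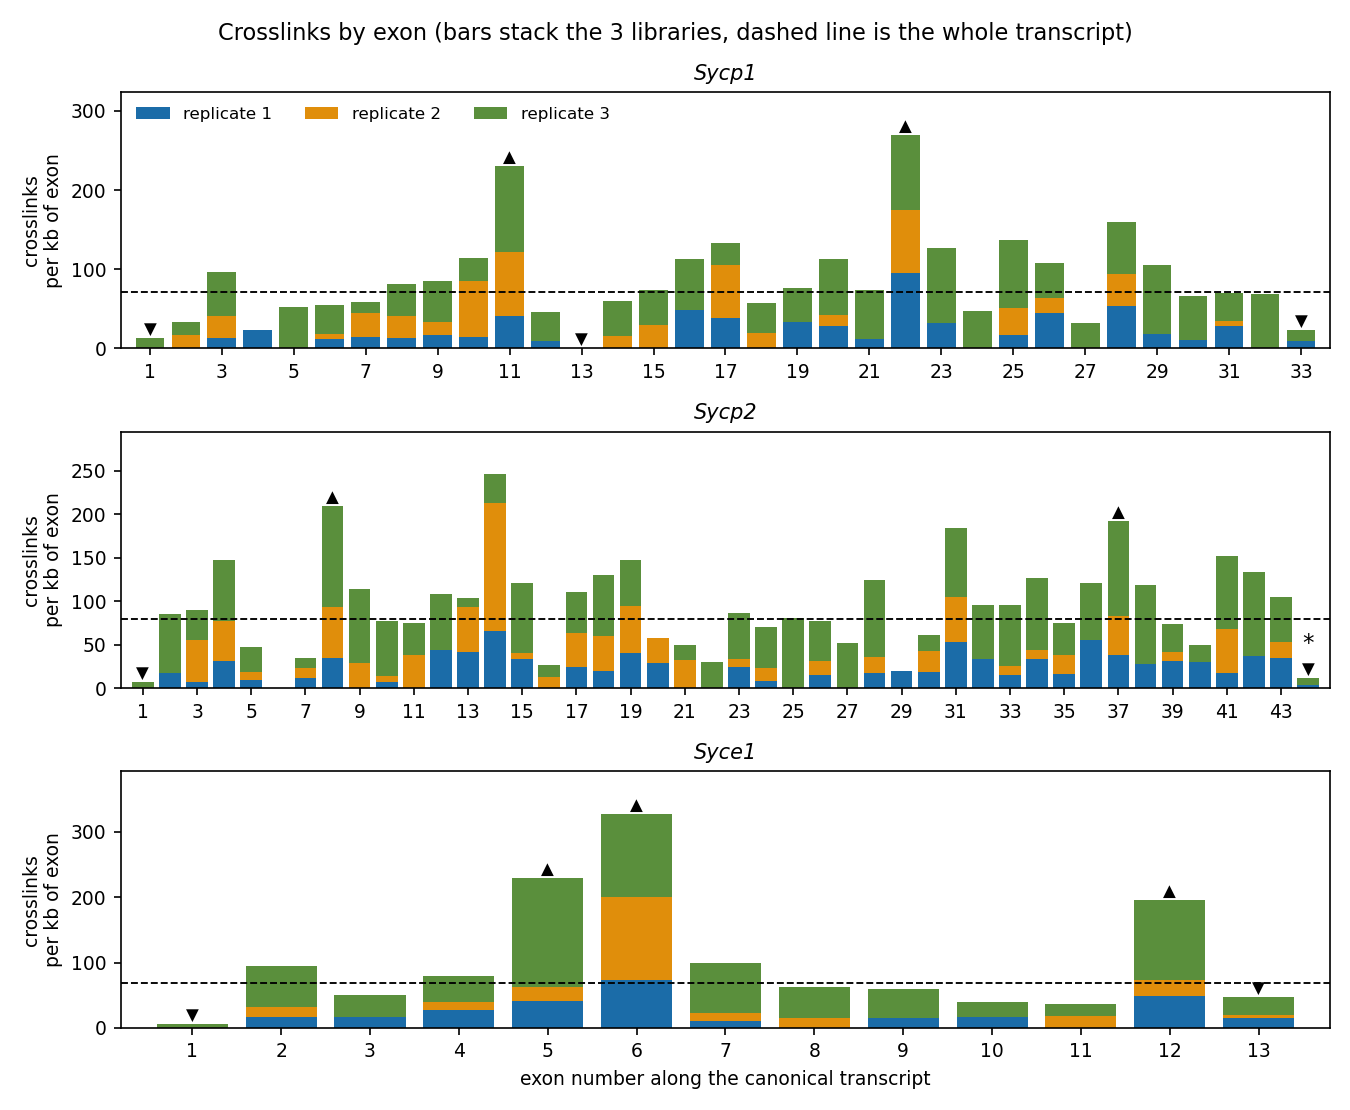
Crosslinks per kb in each exon of Sycp1, Sycp2 and Syce1, in order along the canonical transcript, with the 3 libraries stacked and the whole transcript as a dashed line. Upward and downward triangles mark exons called above or below the other exons with the libraries summed, and the asterisk marks exon 44 of Sycp2, the exon called in each library.

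The 41 nt with the most crosslinks in each of the 8 exons are shown because they hold the local maxima within these transcripts. They were read from GRCm39 on the strand of the gene, 5′ to 3′, and capitals mark every GAA.
Syce1 exon 5, chr7:140359797-140359837, minus strand, 10 crosslinks: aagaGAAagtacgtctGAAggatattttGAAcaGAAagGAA
Syce1 exon 6, chr7:140359515-140359555, minus strand, 18 crosslinks: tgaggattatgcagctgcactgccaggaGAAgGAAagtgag
Syce1 exon 12, chr7:140357843-140357883, minus strand, 15 crosslinks: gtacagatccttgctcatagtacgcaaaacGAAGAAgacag
Sycp1 exon 11, chr3:102829732-102829772, minus strand, 14 crosslinks: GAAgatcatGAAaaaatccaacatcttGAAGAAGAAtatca
Sycp1 exon 22, chr3:102783626-102783666, minus strand, 16 crosslinks: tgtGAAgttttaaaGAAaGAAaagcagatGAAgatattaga
Sycp2 exon 8, chr2:178037040-178037080, minus strand, 12 crosslinks: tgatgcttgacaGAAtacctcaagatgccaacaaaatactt
Sycp2 exon 37, chr2:177992685-177992725, minus strand, 20 crosslinks: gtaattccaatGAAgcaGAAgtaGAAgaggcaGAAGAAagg
Hormad1 exon 14, chr3:95492476-95492516, plus strand, 12 crosslinks: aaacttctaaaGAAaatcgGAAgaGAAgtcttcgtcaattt

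These windows hold from 1 GAA in Sycp2 exon 8 to 5 in Syce1 exon 5, Sycp1 exon 11 and Sycp2 exon 37. Exon 13 of Sycp1, shown whole because it is the exon of that gene without a crosslink, has 7 GAA. It lies in sequence that a processed pseudogene shares, and how reads that map to several places were treated was not given. Its lack of crosslinks is uncertain for that reason.
Sycp1 exon 13, chr3:102823120-102823214, minus strand, 0 crosslinks: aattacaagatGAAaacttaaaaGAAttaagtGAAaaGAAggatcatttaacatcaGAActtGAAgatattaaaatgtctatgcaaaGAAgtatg
All 8 exons above on the sum held more GAA than the median coding sequence (2.14 per 100 nt), from 3.49 in Sycp2 exon 8 to 12.5 in Syce1 exon 5, but so did all 9 coding sequences. Against the median of 4.05 over the internal exons tested in these genes, 6 of the 8 were higher, and Sycp2 exon 8 and Syce1 exon 6 (3.64) lower. Across wholly coding exons, GAA content and crosslinks per kb went with a Spearman rho of 0.75 in Syce1 (11 exons), 0.43 in Sycp1 (30 exons) and 0.13 in Sycp2 (41 exons), a description over exons that share their RNA and libraries.

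Of the 5 genes whose exons were tested, last exons were low in 4 and first exons in 3 with the libraries summed. Exon 44 of Sycp2, its last exon of 1125 nt, had 4, 0 and 9 crosslinks where the other exons had 104, 95 and 243, or 11.6 beside 96.0 crosslinks per kb over the libraries. It was called below in each library (highest adjusted p 0.000452, exact binomial test), the only call in that direction among the 113 exons, against 0.305% of all exons tested. On the sum 8 of the 113 were below, against 3.04% of all exons: the last exons of Sycp1, Sycp2, Syce1 and Hormad1, the first exons of Sycp1, Sycp2 and Syce1, and exon 13 of Sycp1. Exon 44 of Sycp2 and exon 33, the last, of Sycp1 kept that call with any library left out. Not every last exon was sparse: that of Tex12 held all 5 exonic crosslinks, that of Sycp3 23 of 60 with no call, and that of Syce1, although below on the sum, 36 of 123 in 773 nt. Last and first exons were low in other genes too, as 34.9% of all last exons and 10.8% of all first exons tested were below on the sum, beside 0.291% of internal exons. When internal exons alone were compared with each other, no exon of the 9 genes was called below in each library. Nor was any of the 41821 such exons tested in all genes. The exon called below in each library before, exon 44 of Sycp2, is a last exon and was not among them. The summed rule was not applied there, and exon 13 of Sycp1 kept a low fold (log2 -2.31, beside -2.05 with all exons).

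The low ends were mostly untranslated sequence. In Sycp2, the coding sequence had 105, 95 and 243 crosslinks and the 3′ UTR 2, 0 and 5, or 83.5 ± 40.2 beside 5.82 ± 5.56 CPM per kb (SD, n = 3). Sycp1 had 54, 51 and 141 beside 3, 0 and 4 (69.6 ± 37.3 and 14.9 ± 12.9 CPM per kb). Syce1, with a higher 3′ UTR, had 20, 18 and 55 beside 10, 1 and 18 (79.3 ± 46.2 and 36.9 ± 29.8 CPM per kb). The 3′ UTR was below the coding sequence in all 3 libraries in 4 of 5 genes with at least 20 exonic crosslinks, and in 67.8% of 3376 such genes overall. Sycp3 was the gene that was not: its 3′ UTR had 2, 1 and 15 crosslinks, and in replicate 3 its density of 82.7 CPM per kb exceeded the 78.4 of its coding sequence.

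**Figure D4:**
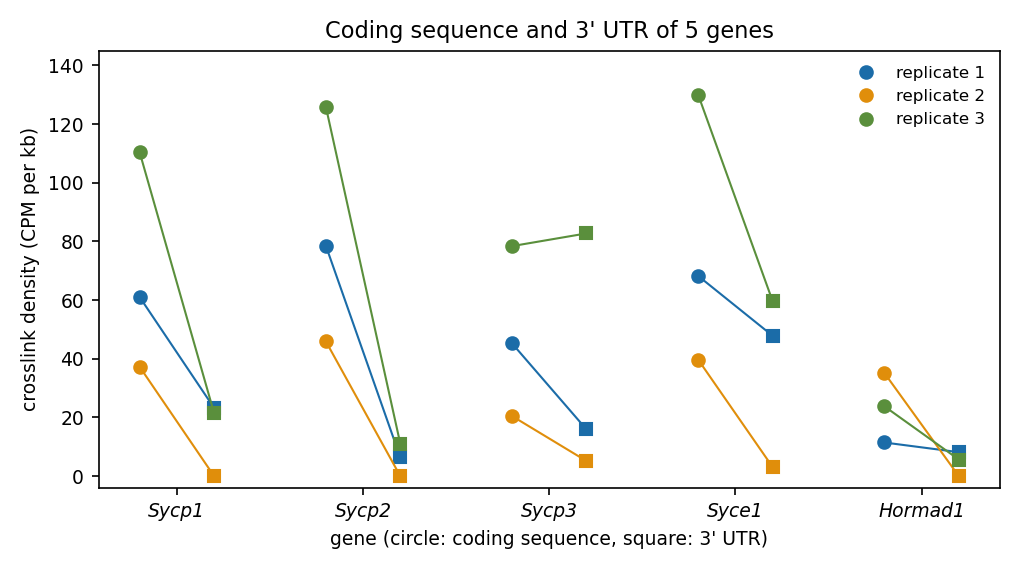
Crosslink density (CPM per kb) in the coding sequence (circles) and 3′ UTR (squares) of the 5 genes with at least 20 exonic crosslinks, with a line per library. All lines fall but that of Sycp3 in replicate 3, which goes from 78.4 to 82.7.

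In introns, the clearest local excess lay in Hormad2. Of 110 introns tested against the other introns of their gene, none was called above or below in each library, against 0.313% and 0.153% of all introns. Without adjustment, intron 5 of Hormad2 and intron 4 of Sycp2 passed above in all 3 libraries (0.986% of all introns) and intron 20 of Sycp1 below (0.619%). On the sum, 5 of the 110 introns were above, a share near the 3.45% of all introns, and 4 below, near the 2.71% of all. Intron 5 of Hormad2, 2661 nt long, held 7, 13 and 10 crosslinks where the other 9 introns together held 43, 61 and 52. Its log2 fold of 2.74 ± 0.18 (SD, n = 3) was the steadiest of the 5, with adjusted p of 0.0845, 3.68e-05 and 0.00244 by library and 6.15e-12 on the sum in the exact binomial test.

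That stretch is intron only in the canonical transcript. Exons of 8 other annotated Hormad2 transcripts, 7 of which end in it, cover all of its 2661 nt, so that its 30 crosslinks could not lie elsewhere. Hormad1 showed the same arrangement at its 3′ end, where intron 14 had the highest fold of its introns, with 3, 4 and 4 crosslinks (log2 fold 1.56 ± 0.37, adjusted p 0.159 on the sum in the exact binomial test). Exons of other Hormad1 transcripts, 5 of which end there, cover 94.1% of it and held all 11. Over all 9 genes, 57 intronic crosslinks fell in exons of other transcripts, of which 33 were in Hormad2, 11 in Hormad1 and 10 in intron 24 of Sycp1. With exons of all transcripts counted as exonic, Hormad2 was called higher in exons in each library (log2 ratio 1.98, highest adjusted p 0.00184), and its exon density was 5.64 CPM per kb. Which of these transcripts the testis made was not measured here.

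**Figure D5:**
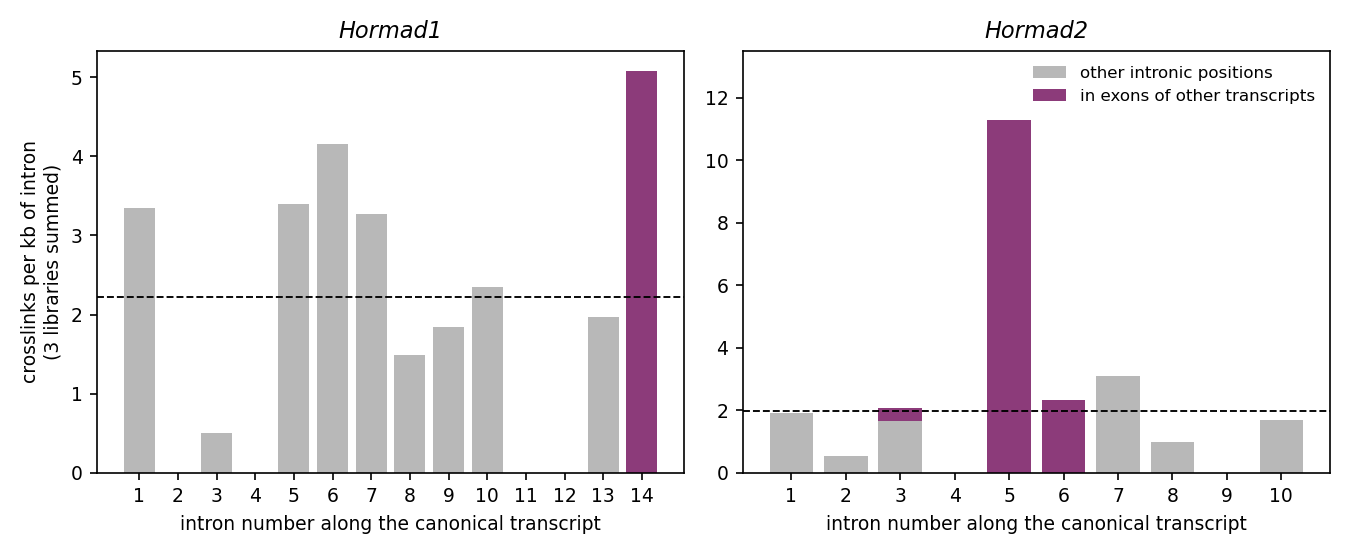
Crosslinks per kb of each intron of Hormad1 (left) and Hormad2 (right), the 3 libraries summed, with positions in exons of other transcripts in purple and all introns of the gene as a dashed line. Intron 5 of Hormad2 (30 crosslinks) and intron 14 of Hormad1 (11) are purple throughout.

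Introns 4 and 6 of Sycp2, near its 5′ end, were above on the sum. Intron 5, of 264 nt between them, held 0, 1 and 1 crosslinks, or 7.58 per kb beside 4.18 in the other introns of Sycp2, with no call. Intron 4, of 699 nt, held 6, 8 and 6 crosslinks, or 28.6 per kb beside 3.89 in the other introns of Sycp2. Its log2 fold was 3.04 ± 0.69 (adjusted p 5.83e-09 on the sum in the exact binomial test). Intron 6, of 5697 nt, held 15, 11 and 25 (log2 fold 1.302 ± 0.36). Neither holds an exon of another transcript with a crosslink, and both calls on the sum held with any library left out. Within 100 nt of an exon, Sycp2 had 20.6% of its intronic crosslinks in 14.2% of its intronic length, and Sycp1 had 11.5% in 5.44%. The other 7 genes showed no such excess, with 2.15% in 2.10% in Hormad2, 8.47% in 10.1% in Hormad1 and none in 11.3% in Sycp3.

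Intron 1 of Sycp3 was also above on the sum, with 4, 11 and 4 of the 7, 16 and 7 intronic crosslinks, but not without replicate 2 (adjusted p 0.180, exact binomial test). Sycp1 had introns of both kinds. Intron 24 held 3, 12 and 16 crosslinks and failed without replicate 3 (adjusted p 0.542). Intron 20, of 14682 nt, held 0, 0 and 1 and was below the others with any library left out. Intron 15, chosen after its values were seen, held 8 and 14 crosslinks in replicates 1 and 2, with adjusted p of 0.00392 and 4.6e-05, and 0 of 62 in replicate 3.

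Coding sequences of all 9 genes were richer in purines and in GAA than the median of 21770 genes, which were 51.7% purine and 2.14 GAA per 100 nt. Sycp1 stood highest, with 63.5% purine and 6.14 GAA per 100 nt, above 99.9% of all genes for GAA. Sycp3 had 5.11 GAA per 100 nt, Tex12 the fewest with 2.71. Sycp2 (3.98) and Syce1 (3.95), both dense in exons, had less GAA than Syce3 (4.17), whose exons held 1, 0 and 1 crosslinks. Whether density between genes goes with GAA content was not tested, as RNA levels were not measured.

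Crosslinks in exons lay close to GAA pentamers more often than exonic positions at large. The pentamer GAAGA was searched on the sense strand together with its shifted form AGAAG and with the other shifted form, AAGAA. These overlap each other, and a crosslink was near when the centre of any such match lay within 30 nt. In the 9 genes this held for 65.9%, 67.2% and 58.7% of exonic crosslinks, and for 41.05% of all exonic positions. The ratio to the share expected from all positions of the same exons was 1.47, 1.49 and 1.301 (mean 1.42 ± 0.105, SD, n = 3), above 1 in each library. Over all 3574 genes with at least 20 exonic crosslinks the ratio was 1.40, 1.796 and 1.34 in replicates 1, 2 and 3, so the 9 genes were above it in replicate 1 and below it in replicates 2 and 3. Within 15 nt, the 9 genes had 1.501, 1.75 and 1.31 and lay below all genes (1.55, 2.13 and 1.46) in every library, as they did with 30 nt downstream only. By gene, Syce2 had the highest ratio (2.45 ± 0.0986, with 19 crosslinks), then Syce1 (1.91 ± 0.278), Sycp3 (1.60 ± 0.222), Hormad1 (1.53 ± 0.139), Sycp1 (1.34 ± 0.106), Sycp2 (1.33 ± 0.114) and Hormad2 (1.26 ± 0.608). None of the 5 crosslinks in Tex12 was near a pentamer. In introns the ratio was 1.52 ± 0.34.

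Single nucleotides were seldom hit again. Of 1591 crosslinked positions in the 9 genes, 49 were found in 2 or more libraries, 27 of them in Sycp2, and 3 in all 3 libraries, in exon 17 of Sycp1 and exons 15 and 23 of Sycp2. The highest count at a position in a library was 3. Sparse hits were general: over the whole libraries, 98.2%, 98.0% and 96.5% of positions in replicates 1, 2 and 3 held a single cDNA. The share of positions found in several libraries was not counted over all genes.

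Some of these genes have relatives elsewhere in the genome. Spliced Sycp1 matched the processed pseudogene Sycp1-ps1 over 86.1% of its length, in stretches of up to 91.9% identity. Spliced Hormad1 matched the processed pseudogenes Gm15529 and Gm7167 and a lncRNA, with up to 98.7% identity in stretches that covered 96.3% of its length. The copies of Sycp1 carried 9 crosslinks and those of Hormad1 1 in all, beside 255 and 39 in the exons of the genes. How reads that map to several places were treated was not given in the sources used here, so exonic counts of Hormad1, and less so of Sycp1, are uncertain. That holds for single exons in the matched stretches too, among them exons 11, 13 and 22 of Sycp1 and exon 14 of Hormad1. Apart from short repeats in Tex12, the other genes had no match of 50 nt or more at 90% identity.

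A list of 18 other genes of synapsis and recombination gave a comparison: Six6os1 (under its clone name in the annotation), Rec8, Stag3, Rad21l, Smc1b, Iho1, Trip13, Rnf212, Ccnb1ip1, Tex11, Msh4, Msh5, Terb1, Terb2, Majin, Kash5, Spo11 and Dmc1. All 18 had crosslinks, and their median exon density was 3.71 CPM per kb, with a range of 0.201 to 66.2, beside a median of 18.2 in the 9 genes. Of 14 with enough crosslinks, 5 were called higher in exons in each library and 11 on the sum, against 32.3% and 71.2% of all genes tested. Of their 117 exons tested, none was called above or below in each library, against 0.164% and 0.305% of all exons. On the sum 3 were above and 1 below, against 3.68% and 3.04% of all exons.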

How the data were processed

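The 3 Tra2β iCLIP libraries of adult wild type mouse testis were analysed. The authors ran the iMAPS pipeline, and the submitters' processing notes name Trim Galore 0.6.7, Bowtie 1.3.1, STAR 2.7.9a, UMI-tools 1.1.2 and build mm39 (GRCm39). The deposited values are whole-number counts of unique cDNAs per crosslinked nucleotide and strand, not normalised and not pooled, and nucleotides without a cDNA are not listed. The labels call the libraries replicates of 1 group, and p-values measure counting error within each. Every chromosome name and position fitted GRCm39. Counts were assigned by strand to exons and introns of the Ensembl canonical transcript in GENCODE vM39, with exons numbered along it.

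Features were tested by two-sided exact binomial tests on length (Python 3.11.15, SciPy 1.17.1). Benjamini-Hochberg adjustment ran over all features of all protein-coding genes with at least 20 crosslinks. The exon test was also run on simulated counts that held counting error only. Folds were planted there only in exons of genes with more exonic crosslinks than any of the 9 had. Recovery of folds at the depth of the 9 genes was therefore not tested. Log2 folds add 0.5 crosslinks to both sides. A count of 0 was read as allowing 3. Copies were sought with blastn 2.17.0+. The exon and intron of highest mean fold were picked among those with at least 5 crosslinks and 1 in each library, and every one called was picked too. Not all of those picked are described above. Windows of 41 nt needed at least 10 crosslinks in the exon. The 9 genes and all lists were chosen with earlier results of these data known. Alternatives were summed libraries, internal exons only, positions counted once, other minimums, overlapping features left out, exons of all transcripts, other scalings, other pentamer windows, and leaving out each library.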

Additional observations from a re-analysis of the deposited data

How the results depend on the processing

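Calls in each library were few at this depth, and summing the libraries changed the counts most: 8 exons of the 9 genes were above and 8 below in place of 0 and 1, and 5 introns were above and 4 below in place of 0 and 0. With internal exons only, 0 exons were below in each library, as last exons were left out. Without replicate 1, 2 exons were below (Sycp2 exon 44 and Sycp1 exon 33), against 0.514% of all exons tested. In the same setting 1 intron was above (Hormad2 intron 5), against 0.546% of all introns tested. Without replicate 3, 2 introns were above (Sycp1 intron 15 and Sycp2 intron 4), against 0.441% of all. Over the 3 leave-outs, exons below ranged from 1 to 2 and introns above from 0 to 2. The count of 6 genes higher in exons was the same under each alternative but the summed libraries, where it was 7. Under exons of all transcripts it was a different set, as Hormad2 was gained and Syce2 lost (log2 ratio 2.00, highest adjusted p 0.0930, exact binomial test).

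Densities in CPM per kb moved beyond 1 SD under exons of all transcripts for exons of Syce2 (6.54), Hormad1 (10.1) and Hormad2 (5.64) and introns of Syce3 (0.400) and Hormad2 (1.47), and with all crosslinks as the scale for exons of Tex12 (1.63) and Hormad2 (4.01) and introns of Syce1 (0.846), Hormad1 (1.51) and Hormad2 (1.39). Exons of Sycp1 went from 60.1 to 35.4 under exons of all transcripts, within their SD. The pentamer ratio was 1.56 with 30 nt downstream only. No fold of a called feature changed sign. No paired analysis was possible because there was 1 group.

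Of the 8 exons above on the sum, 2 kept the call with any library left out (Syce1 exon 6 and Sycp1 exon 22), and of the 8 below, 2 (Sycp2 exon 44 and Sycp1 exon 33). Of introns it was 3 of 5 above (Hormad2 intron 5 and Sycp2 introns 4 and 6) and 1 of 4 below (Sycp1 intron 20). These leave-outs of the summed calls were added after seeing the data. They were run for features of these genes only, so no share over all features stands beside them. Among all genes, the share called higher in exons ran from 12.4% with a minimum of 1 crosslink to 71.2% with the libraries summed.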
